A study of Mus musculus with 24 samples.

Results

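A list of 33 genes of myelin, of oligodendrocytes and of their precursors was followed through 24 bulk RNA sequencing libraries of mouse brain. The genes were chosen by name, and the table of gene counts held all 33 of them among 40836 genes. By name, the libraries divide into 6 groups of 4, since each name combines a library number with E3 or E4 and with 05, 10 or 15 (called E code and time code here). The labels state tissue (brain) and polyadenylated RNA, and the titles name 6 months in order, January and February for time code 05, March and April for 10, May and June for 15. No strain, allele, treatment, sex or age is given for any group, and neither code is spelled out, although the series title concerns ApoE4. The titles call the libraries biological replicates without saying that each came from its own animal, so the p-values cover only the spread among these libraries, which may be technical.

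Myelin is the membrane that oligodendrocytes wrap around axons in the central nervous system. Dividing precursors, which carry Pdgfra and Cspg4, pass through a short stage that carries Gpr17, Enpp6 and Bcas1 and then make myelin proteins and lipids under the factors Sox10 and Myrf. White matter tracts and the brainstem are rich in myelin, while precursors are spread through grey and white matter.

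The columns of the table are headed by numbers, and 8 of them, those headed by multiples of 3, hold libraries rich in hindbrain genes. The list of 16 cerebellum and hindbrain genes summed to between 1961 and 6382 CPM (counts per mega of library total, adjusted by the trimmed-mean factor) in these 8, and to between 66.9 and 297 CPM in the other 16. This division was known from an earlier look at region genes in the same counts. It crosses the groups: E3-10 and E4-15 hold 2 hindbrain-rich columns each and the remaining 4 groups hold 1 each. Total counts ran from 37.4 M to 99.5 M (M, mega) per library. The lowest count of any of the 33 genes in any library was 86, for Ninj2 in E4-05 1. Counting error weighs most in Ninj2 and Nkx2-2, which have the lowest counts, and less in the others. All 33 genes passed the filter on low counts, which left 20437 genes. In bulk RNA, fewer cells of a type and less RNA per cell cannot be told apart.

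The 3 upstream sequences are shown here because their genes carry the contrasts described below: Hapln2 was the member with the greatest excess in the hindbrain-rich columns, Opalin the only myelin membrane gene that passed with a deficit there, and Mobp a myelin gene with nearly the same level in both classes. Each is the 250 bases before a gene start in RefSeq on build GRCm38.p6, read on the strand of the gene. The counts themselves were made on another build, mm39. Capitals mark matches, on either strand, to ACAAAG and ACAATG, forms of the site bound by SOX factors such as Sox10, and to CAGCTG, an E-box of the kind bound by basic helix-loop-helix factors, which reads the same on both strands. A given stretch of bases can match only one of these motifs.
Hapln2, chr3:88027512-88027761, minus strand: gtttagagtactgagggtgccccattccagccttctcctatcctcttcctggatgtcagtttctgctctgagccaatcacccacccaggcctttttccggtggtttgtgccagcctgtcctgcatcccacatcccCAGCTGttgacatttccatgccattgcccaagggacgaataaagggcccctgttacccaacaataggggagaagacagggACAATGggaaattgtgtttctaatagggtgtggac
Opalin, chr19:41077114-41077363, minus strand: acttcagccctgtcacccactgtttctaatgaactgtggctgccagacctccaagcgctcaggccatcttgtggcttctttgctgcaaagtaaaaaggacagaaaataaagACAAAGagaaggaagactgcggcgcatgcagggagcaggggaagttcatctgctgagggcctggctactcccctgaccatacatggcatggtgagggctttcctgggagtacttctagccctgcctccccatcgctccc
Mobp, chr9:120149492-120149741, plus strand: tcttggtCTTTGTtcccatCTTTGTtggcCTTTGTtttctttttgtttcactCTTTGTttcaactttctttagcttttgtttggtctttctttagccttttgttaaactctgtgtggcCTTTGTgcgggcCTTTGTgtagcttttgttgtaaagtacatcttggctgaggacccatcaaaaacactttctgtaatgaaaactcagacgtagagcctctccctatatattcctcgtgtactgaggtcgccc
The Hapln2 window held 1 ACAATG and 1 CAGCTG, and the Opalin window 1 ACAAAG. The Mobp window held 6 ACAAAG matches, all on the opposite strand as CTTTGT, and was the only 1 of 32851 windows in the table with 6 or more. Windows were at hand for 24 of the 33 genes (32 windows in all). Among these 32 windows, ACAAAG was in 7, against 16.5% of all windows. ACAATG was in 7, against 10.7%, and CAGCTG in 3, against 13.0%. These counts are by window, not by gene, and windows of a gene can overlap. Overlapping Mag windows share an ACAAAG match and overlapping Gal3st1 windows an ACAATG match, so the same site was counted in each. These matches are letters in a window and say nothing of binding.

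Levels of the 33 genes varied widely between single libraries. Over all 24, the highest library was 1.81 to 4.72 times the lowest, with a median over the genes of 3.05 times. For 23 of the 33 genes the highest library was E3-10 1, a hindbrain-rich column, for 5 it was E4-05 4 and for 3 it was E3-15 1. E4-05 1 was lowest for 16 genes and E3-10 4, another hindbrain-rich column, for 8. The group E3-10 thus held libraries from both ends. Relative to the other libraries of their column class, the median of the 33 genes lay 0.76 above in E3-10 1, 0.74 above in E4-05 4 and 0.55 above in E3-15 1 on the log2 scale. It lay 0.39 below in E4-05 1 and in E3-10 4.

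**Figure D1:**
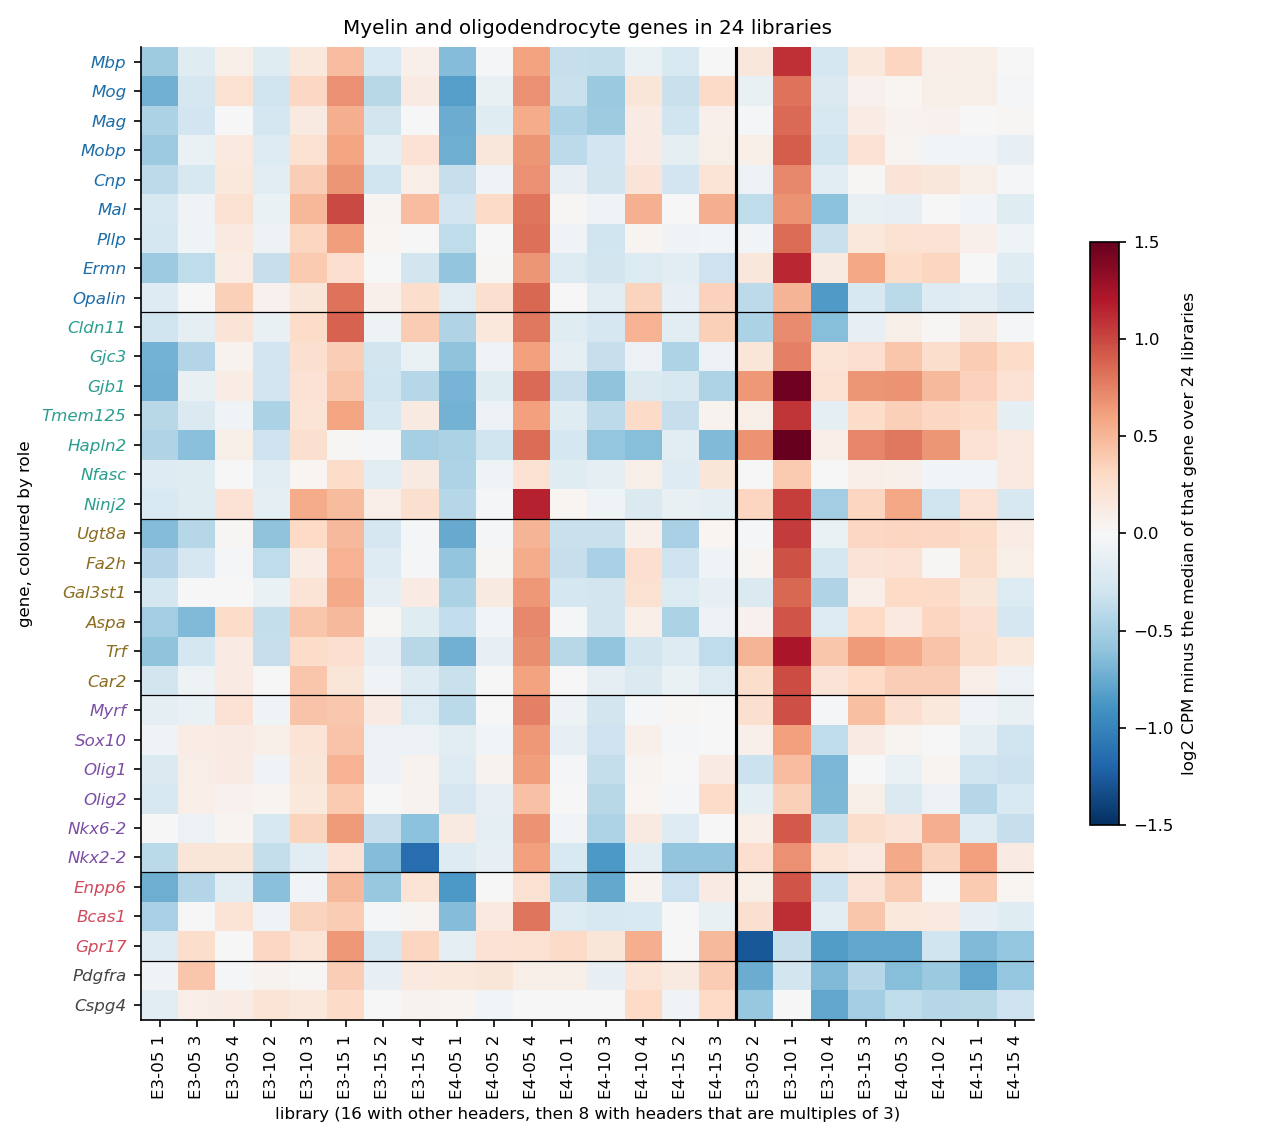
Each row is a gene, grouped and coloured by role, and each column a library, with the 16 libraries of other headers on the left and the 8 hindbrain-rich columns on the right; colour is log2 CPM minus the median of that gene over all 24 libraries. E3-10 1, E4-05 4 and E3-15 1 are high for most genes, and the last 3 genes (Gpr17, Pdgfra, Cspg4) are low in the hindbrain-rich columns.

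Both precursor genes were lower in the hindbrain-rich columns, and genes of mature oligodendrocytes lay on both sides. Of the 33 genes, 13 passed in edgeR's quasi-likelihood test at an adjusted p under 0.05, in a fit with the 6 groups and a term for the class, and 57.5% of all genes tested did so. Of these, 9 were higher in the hindbrain-rich columns, against 30.1% of all genes, and 4 were lower, against 27.4%. The share of members called is thus below that of all genes. The median log2 difference was 0.18 over the 33 genes and 0.04 over all genes tested. Without E3-10 1 the median of the 33 genes was 0.06. Of the 13 calls, 9 held when any single library was left out. They were those of Hapln2, Gjb1, Trf, Nkx2-2, Gjc3, Car2, Gpr17, Pdgfra and Cspg4.

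Both precursor genes and Gpr17 were lower in the hindbrain-rich columns. Pdgfra encodes the receptor for platelet-derived growth factor on precursors. In the 8 hindbrain-rich columns it stood at 38.6 to 54.4 CPM with a median of 43.2 CPM, and in the other 16 at 60.4 to 88.3 CPM with a median of 71.4 CPM. The ranges did not overlap, and the log2 difference was -0.71 (SE 0.08, edgeR adjusted p = 2.48e-07). Cspg4, the NG2 proteoglycan of precursors, stood at 14.4 to 24.9 CPM (median 18.5) against 22.0 to 30.6 CPM (median 25.6). Its ranges overlapped through E3-10 1, and the log2 difference was -0.53 (SE 0.08, edgeR adjusted p = 1.17e-05). Gpr17, a receptor of cells that are leaving the precursor state, stood at 26.2 to 51.5 CPM (median 38.3) against 53.1 to 99.1 CPM (median 74.0). Again every hindbrain-rich column lay below every other column, with a log2 difference of -0.92 (SE 0.11, edgeR adjusted p = 4.92e-07). Gpr17 and Pdgfra were the 2 of 33 genes whose ranges did not overlap, both lower, and 7.72% of all genes tested did not overlap in that direction (5.97% in the other).

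The remaining genes of newly formed oligodendrocytes did not share the deficit of Gpr17. Enpp6, a choline phosphodiesterase, stood at 16.5 to 39.9 CPM (median 22.9) in the hindbrain-rich columns and at 11.4 to 29.0 CPM (median 17.6) in the others. It was higher by 0.44 (log2, SE 0.17, edgeR adjusted p = 0.035), and this call was lost when any 1 of 9 libraries was left out (range 0.29 to 0.51). Without E3-10 1, the library with most Enpp6, the difference was 0.29 with an adjusted p of 0.114. Bcas1 stood at 196 to 478 CPM (median 247) against 142 to 386 CPM (median 219), with a log2 difference of 0.21 (SE 0.16, edgeR adjusted p = 0.263).

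Of the 7 genes of junctions and of the contact between myelin and axon, 3 passed, all higher in the hindbrain-rich columns. Hapln2 encodes a link protein of the matrix at nodes of Ranvier. It stood at 40.8 to 113 CPM (median 60.2) in the hindbrain-rich columns and at 23.9 to 67.5 CPM (median 30.6) in the others. The overlap came from E4-05 4 at 67.5 and E3-10 3 at 44.8 CPM, and the log2 difference was 0.87 (SE 0.17, edgeR adjusted p = 1.86e-04). Gjb1, the gap junction protein connexin 32, stood at 41.5 to 98.5 CPM (median 53.1) against 21.7 to 64.1 CPM (median 29.7), a log2 difference of 0.77 (SE 0.17, edgeR adjusted p = 6.50e-04). Gjc3, another oligodendrocyte connexin, stood at 94.1 to 139.8 CPM (median 100.02) against 50.6 to 127 CPM (median 76.1), a log2 difference of 0.45 (SE 0.13, edgeR adjusted p = 0.00571). The remaining 4 genes of this role did not pass. Among them were Tmem125, a membrane protein of oligodendrocytes, with 0.34 (SE 0.17, adjusted p = 0.0861), and Nfasc, whose product anchors myelin at the paranode, with 0.12 (SE 0.08). Ninj2, an adhesion protein, had 0.14 (SE 0.19), and Cldn11, the claudin of myelin tight junctions, had -0.17 (SE 0.18).

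**Figure D2:**
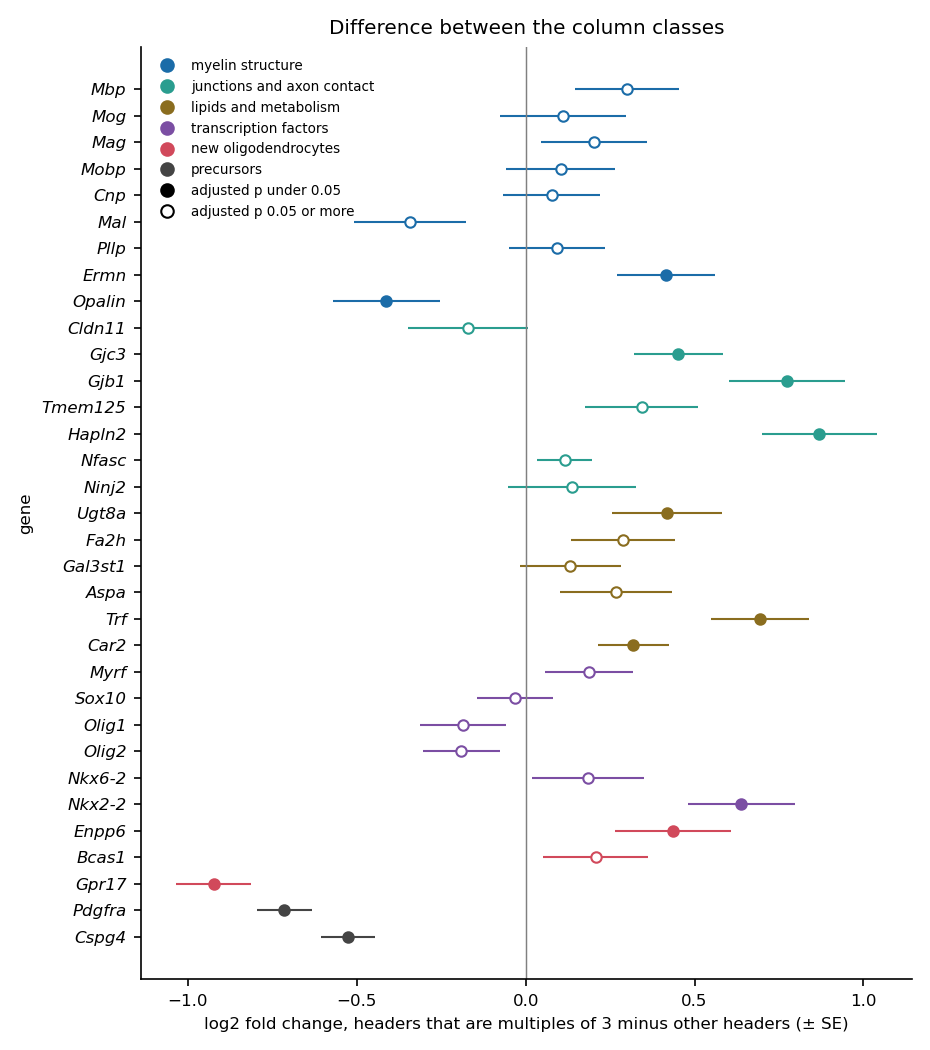
Points are the log2 difference of each of the 33 genes between the 8 hindbrain-rich columns and the other 16, bars are the standard error, colours are roles, and filled points passed at an adjusted p under 0.05. Hapln2 at 0.87, Gjb1 at 0.77 and Trf at 0.69 lie farthest right, and Gpr17 at -0.92 and Pdgfra at -0.71 farthest left.

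All 6 genes of lipids and metabolism had positive differences, and 3 of them passed. Trf, the iron carrier transferrin, stood at 502 to 1049.5 CPM (median 623) in the hindbrain-rich columns and at 273 to 731 CPM (median 374) in the others. Its log2 difference was 0.69 (SE 0.15, edgeR adjusted p = 3.70e-04), and the ranges overlapped through E3-10 3 at 545, E3-15 1 at 538 and E4-05 4 at 731 CPM against a lowest hindbrain-rich value of 502 CPM in E4-15 4. Car2, carbonic anhydrase of oligodendrocytes and other cells, stood at 210.2 to 440.1 CPM (median 272) against 177 to 339 CPM (median 214), a log2 difference of 0.32 (SE 0.11, edgeR adjusted p = 0.0138). Ugt8a makes galactosylceramide, the chief glycolipid of myelin. It stood at 129 to 287 CPM (median 169) against 82.0 to 197 CPM (median 126), a log2 difference of 0.42 (SE 0.16, edgeR adjusted p = 0.0334). Leaving out any 1 of 11 libraries ended this call (range 0.29 to 0.47), and without E3-10 1 it was 0.29 with an adjusted p of 0.108. Fa2h, which hydroxylates the fatty acids of myelin lipids, had 0.29 (SE 0.15), Aspa, which frees acetate from N-acetylaspartate, 0.27 (SE 0.16) and Gal3st1, which makes sulfatide, 0.13 (SE 0.15), none of which passed.

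Most genes of the myelin membrane itself did not pass. Mbp, the basic protein that compacts myelin, stood at 3632 to 9299 CPM (median 4785) in the hindbrain-rich columns and at 2786 to 6635 CPM (median 3962) in the others, a log2 difference of 0.30 (SE 0.15, edgeR adjusted p = 0.104). Mog, a glycoprotein of the outer myelin surface, stood at 24.9 to 51.0 CPM (median 29.9) against 16.3 to 46.7 CPM (median 25.5), with 0.11 (SE 0.19, edgeR adjusted p = 0.633). Mag, an adhesion protein next to the axon, had 0.20, Mobp 0.10, Pllp 0.09 and Cnp, a phosphodiesterase of uncompacted myelin, 0.08, with standard errors of 0.14 to 0.16. In this role, 2 genes passed, in opposite directions. Ermn, a protein of the myelin cytoskeleton, stood at 98.2 to 244 CPM (median 129) against 73.5 to 176 CPM (median 96.4), with 0.42 (SE 0.14, edgeR adjusted p = 0.0184). Without E3-10 1 this was 0.30 with an adjusted p of 0.0589. Opalin, a membrane glycoprotein of oligodendrocytes in the central nervous system, stood at 20.5 to 52.9 CPM (median 31.2) against 32.5 to 67.0 CPM (median 40.4), with -0.41 (SE 0.16, edgeR adjusted p = 0.0308). Only E3-10 1 and E4-15 1 of the hindbrain-rich columns lay within the range of the others. The call ended without E3-05 2 (adjusted p = 0.0581), E4-05 3 (0.0856), E3-10 4 (0.0501), E3-15 3 (0.0903) or E4-15 3 (0.0543), and the difference stayed between -0.57 and -0.35. Mal, a raft protein of myelin, had -0.34 (SE 0.17, adjusted p = 0.0845).

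Among the factors, Nkx2-2, a homeodomain protein of the oligodendrocyte lineage, was the only one of 6 that passed. It stood at 7.07 to 10.4 CPM (median 7.96) in the hindbrain-rich columns and at 2.91 to 9.92 CPM (median 5.60) in the others, a log2 difference of 0.64 (SE 0.16, edgeR adjusted p = 0.00168). Myrf, which switches on myelin genes, had 0.19 (SE 0.13), and Nkx6-2 had 0.18 (SE 0.17). Sox10 had -0.03 (SE 0.11), Olig1 -0.19 (SE 0.13) and Olig2 -0.19 (SE 0.11), where Sox10, Olig1 and Olig2 mark the lineage from precursor to mature cell.

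**Figure D3:**
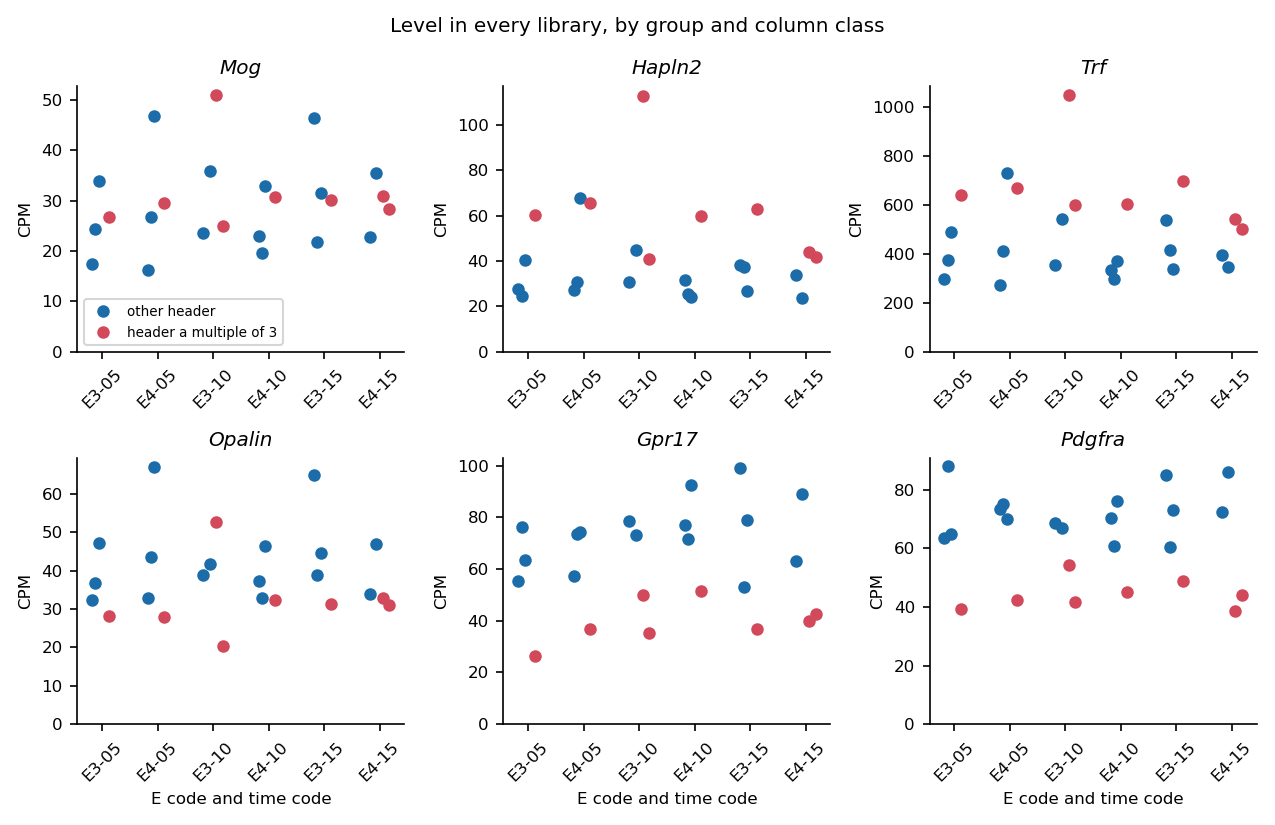
Each panel gives 1 gene, with CPM on a linear axis from 0, the 6 groups on the other axis, and a point for every library, red for hindbrain-rich columns and blue for the others. Gpr17 and Pdgfra are lower in every hindbrain-rich column than in any other column, Hapln2 and Trf are mostly higher there, and Mog overlaps throughout.

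Because most of the 33 genes varied together between libraries, the class difference was also fitted with log2 CPM of Mog as a covariate, an alternative added after the values were seen. Then 20 of the other 32 genes passed, 12 higher and 8 lower, where 57.9% of all genes tested passed. The share of members called is thus near that of all genes, whose shares by direction were not taken in this fit. At a given level of Mog, Mal (-0.46, SE 0.05), Opalin (-0.53, SE 0.07), Cldn11 (-0.29, SE 0.06), Olig1 (-0.28, SE 0.07) and Olig2 (-0.26, SE 0.07) were lower in the hindbrain-rich columns, beside Gpr17, Pdgfra and Cspg4. Mbp (0.18, SE 0.06), Tmem125 (0.23, SE 0.06) and Fa2h (0.18, SE 0.06) joined the 9 genes that were higher. Cnp (-0.01, SE 0.04), Mobp (-0.01, SE 0.06) and Pllp (-0.01, SE 0.07) had estimates near 0. The covariate reduced the standard error of Gjc3 from 0.13 to 0.05 and that of Ugt8a from 0.16 to 0.05.

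Other genes of the lineage, from lists without the 33, were counted in the same way, where 30.1% of all genes were higher and 27.4% lower. Of 28 tested genes of mature oligodendrocytes, 13 were higher and 1 lower in the hindbrain-rich columns (median 0.22), among them Klk6, a protease (1.99, SE 0.25), and Cntn2, an axonal and glial adhesion protein (0.86, SE 0.10). Of the 20 genes of the precursor list, 2 were higher and 14 lower (median -0.40), among them Sox6 (-0.77, SE 0.07) and Matn4 (-0.93, SE 0.10). That list was not divided by stage of the lineage, and it shares Tcf7l2 with the thalamus list. Of 18 genes of sphingolipid metabolism, 6 were higher and 0 lower, with Elovl5, a fatty acid elongase, at 0.53 (SE 0.08). Of 22 genes of cholesterol synthesis and uptake, 5 were higher and 6 lower (median -0.07), with Srebf2, a transcription factor of the pathway, at -0.59 (SE 0.06). Of 20 partners at the node of Ranvier and in the axon, 10 were higher and 5 lower, with Nefh, the heavy neurofilament chain, at 1.52 (SE 0.23). Several of these lists hold genes with other sources than oligodendrocytes.

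Markers of other cell types and regions differed between the column classes too, and their part in the results above was not tested. The 14 microglia genes were all lower and summed to 224 to 350.2 CPM in the hindbrain-rich columns and 427 to 623 CPM in the others. Of 14 neuron genes, 8 were lower and 1 higher (sums of 8595 to 11123 CPM against 11301 to 14547 CPM), and of 14 astrocyte genes 8 were higher and 1 lower (5036 to 6602 CPM against 4292 to 6396 CPM). Of 12 endothelial genes 0 passed, and 3 had an estimate above 0. All 12 striatum genes and 11 of 12 cortex and hippocampus genes were lower, while 2 of 12 thalamus genes were higher and 5 lower. In all, 9 of 12 choroid plexus genes, 5 of 7 red blood cell genes and 1 of 8 pituitary genes were higher. Several of the 33 genes are also used by Schwann cells, which make myelin in peripheral nerve. Of 13 tested Schwann cell and nerve genes, 4 were higher and 4 lower, and the 14 in the table summed to 162 to 248 CPM against 196 to 235 CPM. No list had a gene at 0 counts in every library of a class.

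The E codes were compared at each time code, since the series title names ApoE4. None of the 33 genes passed at any time code in edgeR, where all genes tested gave 0 calls at time code 05 (0%), 2 at 10 (0.00979%) and 0 at 15 (0%). Unadjusted p-values under 0.05 were found for 0 of the 33 genes at each time code, against 549, 1023 and 391 of all genes. DESeq2 called 0 of the 33 genes at each time code as well. On simulated data with the spread of this fit, the comparison at time code 05 recovered 76% of genes changed 2-fold and 90% of those changed 4-fold. The simulation changed 200 genes at once, which eases the adjusted threshold. These shares therefore do not tell how often a change in a few genes would pass. In the real counts at time code 05, the smallest edgeR p of all genes was 3.96e-04, with an adjusted p of 0.994. Per-library ranges of E3 and E4 overlapped for all 33 genes at each time code, where ranges of 0.91%, 1.86% and 1.1% of all genes did not.

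At time code 05, all 33 estimates of E4 minus E3 lay above 0, with a median of 0.23 (all genes tested 0.00, with 51.1% above 0). Most of the 33 genes vary together between libraries, so the signs are not separate results, here or in the other E code comparisons. Mog stood at 17.5, 26.7, 24.3 and 33.9 CPM in E3-05 and at 16.3, 26.7, 29.6 and 46.7 CPM in E4-05. E4-05 1 was thus the lowest and E4-05 4 the highest of the 8, and the log2 difference was 0.22 (SE 0.30). Mbp stood at 4111 ± 860.0 CPM (SD, n = 4) against 4789 ± 1642 CPM, with 0.22 (SE 0.25). The smallest p was that of Gjc3 (0.37, SE 0.21, unadjusted p = 0.0953). Without E4-05 4 the median of the 33 genes was -0.00, and without E4-05 1 it was 0.41. In the same comparison all 12 thalamus genes (median 0.65), all 12 choroid plexus genes (0.53), 11 of 16 cerebellum and hindbrain genes (0.30) and 10 of 14 astrocyte genes (0.16) had estimates above 0. All 12 cortex and hippocampus genes (median -0.32), all 8 pituitary genes (-6.81) and 8 of 12 striatum genes (-0.05) had estimates below 0. The part of these markers in the result was not tested, here or at the other time codes.

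At time code 10, 32 of 33 estimates lay below 0, with a median of -0.22, where 49.5% of all genes tested lay above 0. Mog stood at 51.0, 23.5, 35.9 and 24.9 CPM in E3-10 and at 23.0, 30.7, 19.7 and 32.8 CPM in E4-10. E3-10 1 was the highest of the 8, well above E3-10 3 as the next, and the log2 difference was -0.32 (SE 0.30). Mbp stood at 5411 ± 2647 CPM (SD, n = 4) against 3892 ± 609.9 CPM, with -0.39 (SE 0.25). The estimates farthest from 0 were those of Hapln2 (-0.48, SE 0.28), Trf (-0.47) and Bcas1 (-0.46, SE 0.25). Without E3-10 1 the median was -0.02. Here all 12 thalamus genes (median -0.63), all 12 choroid plexus genes (-1.06), 15 of 16 cerebellum and hindbrain genes (-0.56) and 13 of 14 astrocyte genes (-0.20) had estimates below 0. All 12 striatum genes (median 0.83), all 8 pituitary genes (4.03) and 8 of 12 cortex and hippocampus genes (0.15) had estimates above 0.

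At time code 15, 30 of 33 estimates lay below 0, with a median of -0.23, where 50.6% of all genes tested lay above 0. Mog stood at 46.5, 21.8, 30.2 and 31.6 CPM in E3-15 and at 30.9, 22.9, 35.4 and 28.3 CPM in E4-15. E3-15 1 was highest and E3-15 2 lowest, and the log2 difference was -0.18 (SE 0.30). Mbp stood at 4807 ± 949 CPM (SD, n = 4) against 4276 ± 380.0 CPM, with -0.25 (SE 0.25). Ermn had the smallest p (-0.41, SE 0.23, unadjusted p = 0.0919). Without E3-15 1 the median was -0.09. Region markers were mixed, with estimates below 0 for 8 of 12 thalamus genes (median -0.14), 9 of 12 choroid plexus genes (-0.16), 10 of 16 cerebellum and hindbrain genes (-0.61) and 5 of 8 pituitary genes (-0.55). Estimates were above 0 for 9 of 12 cortex and hippocampus genes (median 0.23), 8 of 12 striatum genes (0.08) and 9 of 14 astrocyte genes (0.03).

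**Figure D4:**
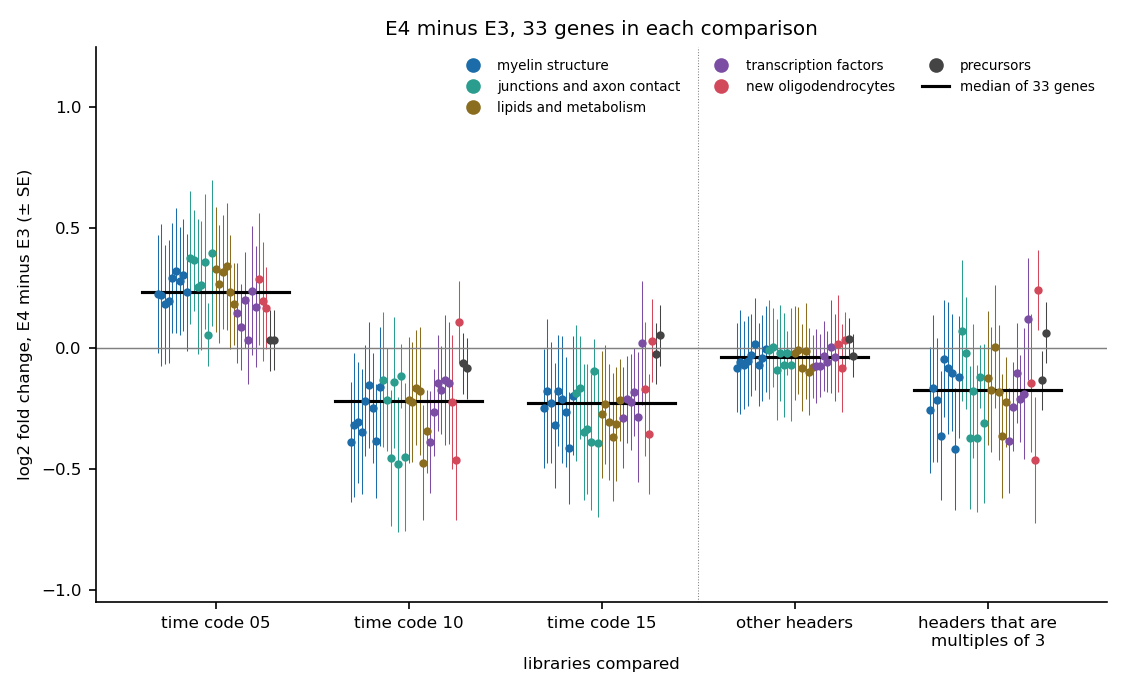
Points are the log2 difference E4 minus E3 of each of the 33 genes with its standard error, coloured by role, for the 3 time codes and for the 2 column classes; the black bar is the median of the 33. Medians are 0.23 at time code 05, -0.22 at 10, -0.23 at 15, -0.04 in the other columns and -0.17 in the hindbrain-rich columns, and no point passed in edgeR.

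Averaged over time codes, the 33 genes had a median E4 minus E3 of -0.07, from -0.21 (Bcas1, SE 0.14) to 0.10 (Gpr17), and 0 passed, as for all genes (0%). None of the 33 genes, and 557 of all genes, had an unadjusted p under 0.05. Mbp had -0.14 (SE 0.14) and Pdgfra -0.02 (SE 0.07). The change in this difference from time code 05 to 15 had a median of -0.50, and 32 of 33 estimates were below 0. It passed for 0 of the 33 genes and for 0 genes in all (0%), with 563 genes at an unadjusted p under 0.05. Ermn had the only unadjusted p under 0.05 (-0.72, SE 0.33, unadjusted p = 0.0415). Without E4-05 4 the median was -0.24, and without E4-05 1 it was -0.64.

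Within a column class the E codes were also compared, in a fit with a level for each E code in each class and with time code. In the other 16 columns the median of the 33 genes was -0.04, with estimates from -0.10 to 0.04, and in the 8 hindbrain-rich columns it was -0.17, from -0.46 to 0.24. None of the 33 genes passed in either class, as for all genes (0%), and none had an unadjusted p under 0.05, against 336 of all genes in the other columns and 1406 in the hindbrain-rich ones. In the hindbrain-rich columns the median was 0.10 without E3-10 1 and -0.32 without E3-10 4. The difference between the classes in E4 minus E3 had a median of -0.15, and again 0 of the 33 genes and 0 of all genes passed (0%), with unadjusted p-values under 0.05 for 0 and 958. Among the 8 sets of 3 adjacent column headers, each with both E codes and 1 hindbrain-rich column, 0 of the 33 genes passed in edgeR, where 0.357% of all genes did. Unadjusted p-values of that test were nonetheless under 0.05 for all of the 33 but Ninj2, Olig2, Nkx6-2, Pdgfra and Cspg4. DESeq2 called 0 of the 33 genes in each of the E code comparisons and in those of time codes.

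Time codes, averaged over E codes, did not separate the 33 genes either. None passed for 10 minus 05 (0% of all genes), 15 minus 05 (0.0538%) or 15 minus 10 (0.00489%). The medians were 0.02, 0.02 and -0.03. Gpr17 had 0.33 for 10 minus 05 (SE 0.12, unadjusted p = 0.0128, adjusted p = 0.999), and Nkx2-2 had -0.43 for 15 minus 05 (SE 0.18, unadjusted p = 0.0281, adjusted p = 0.956). These were the only 2 unadjusted p-values under 0.05 among the 33 genes in the 3 comparisons, where all genes gave 824, 931 and 1577.

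Covariation between single libraries was strong in the 16 other columns, and in the 8 hindbrain-rich columns it rested largely on 2 libraries. It was measured as the correlation of log2 CPM with that of Mog, within the 16 other columns and within the 8 hindbrain-rich columns, never across both, with permutation p-values adjusted over 98 relations (32 genes and 17 list means in 2 classes). The libraries differ in the brain regions that they hold, and the labels do not say whether any share an animal. In the other 16 columns, 30 of 32 genes passed, all with a positive r, with r from 0.39 to 0.97 and a median of 0.88. Of all genes, 6.53% reached such a p with a positive r. With adjustment over all genes tested, 25 of the 32 passed, as did 1.45% of all genes. Without E4-05 4 and E3-15 1, the 2 libraries farthest from the median of Mog, the median r was 0.80.

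Of the other 32 genes, the 6 closest to Mog in the 16 columns were 5 of the membrane role and Cldn11. Mag had r = 0.97 (rho = 0.96, permutation p = 1e-05, the smallest that the permutations can give, adjusted p = 6.1e-05), and 0.96 without the 2 farthest libraries. Cnp had r = 0.97 (rho = 0.97), Cldn11 0.96 (rho = 0.91), Mbp 0.96 (rho = 0.97), Mal 0.96 (rho = 0.89) and Mobp 0.95 (rho = 0.91). Of the genes of new oligodendrocytes and precursors, Enpp6 had r = 0.93, Bcas1 0.83, Gpr17 0.67, Cspg4 0.58 and Pdgfra 0.39 (rho = 0.35, permutation p = 0.130, adjusted p = 0.156). Nkx2-2 had r = 0.46 (rho = 0.58, permutation p = 0.0738, adjusted p = 0.0940) and was the second gene that did not pass. Hapln2, the gene with the largest positive class difference, had r = 0.53 (rho = 0.34, permutation p = 0.0324, adjusted p = 0.0477), and r = 0.21 without the 2 farthest libraries.

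In the 8 hindbrain-rich columns, 27 of 32 genes passed by Pearson's r, with a median r of 0.89, but this rests on E3-10 1 and E3-10 4. Of all genes, 7.32% reached such a p with a positive r. With adjustment over all genes tested, 0 of the 32 and 0% of all genes passed, with unadjusted p-values under 0.05 for 29 and 4624 genes. Without these 2 libraries the median r was 0.35, and by rank correlation 7 of 32 passed. Mal kept r = 0.97 without them (0.97 with them, rho = 0.98, permutation p = 5.0e-05, adjusted p = 2.43e-04), Ugt8a had 0.92 (0.98 with them), Gal3st1 0.84 (0.91) and Cldn11 0.82 (0.91). Mbp went from 0.94 to -0.04 and Gjb1 from 0.88 to -0.13.

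**Figure D5:**
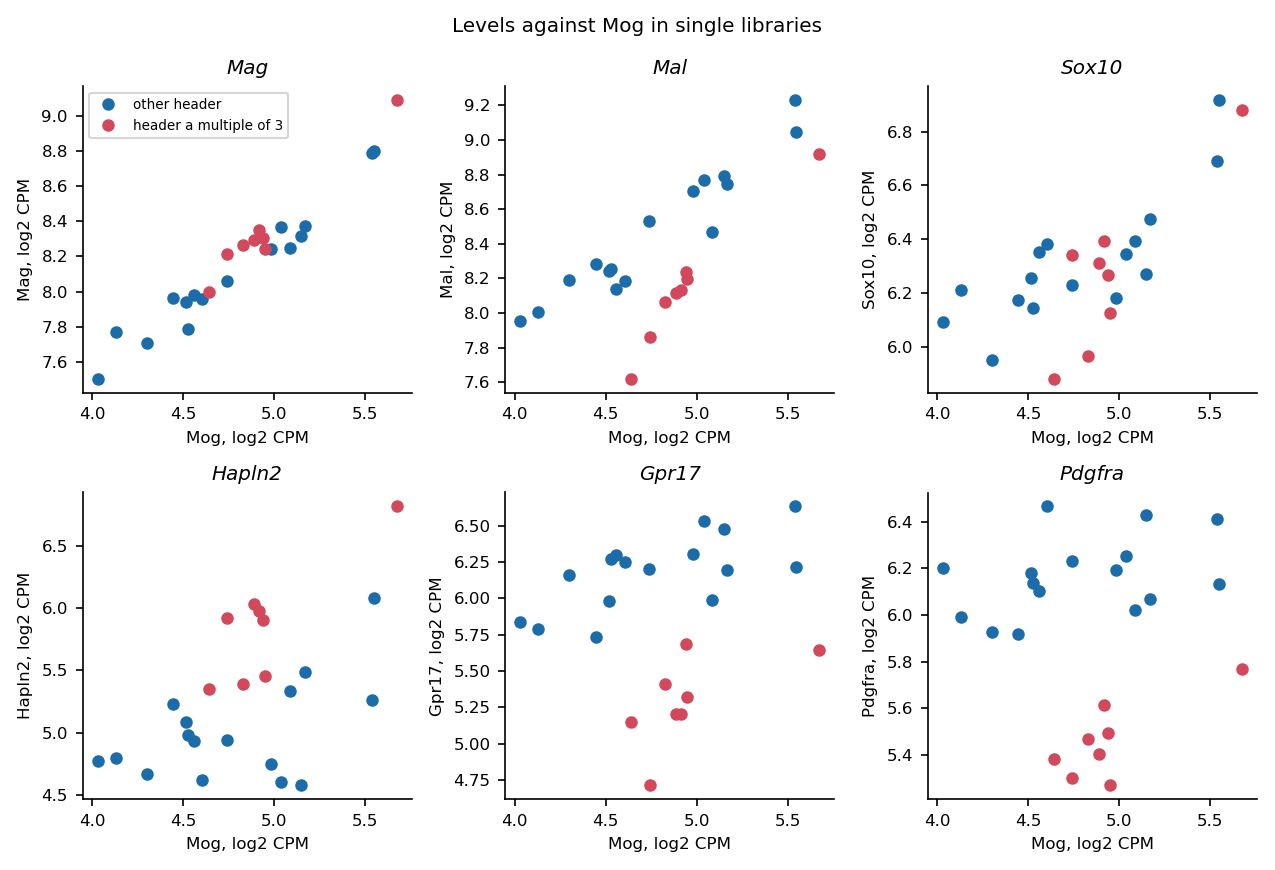
Log2 CPM of 6 genes against log2 CPM of Mog, with a point for each library, red for the 8 hindbrain-rich columns and blue for the other 16. Mag lies on 1 line for both classes, Mal on 2 lines with the hindbrain-rich columns lower at a given Mog, and Pdgfra shows no clear slope among the 16 other columns (r = 0.39).

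For list means the same correlations were taken. In the 16 other columns, 7 of 17 list means passed, 6 of them with a positive r. The mean of the 28 further oligodendrocyte genes had r = 0.91, that of sphingolipid genes 0.86, of the further precursor list 0.69 and of cholesterol synthesis genes 0.60. The astrocyte list had r = 0.58 (rho = 0.63, permutation p = 0.0170, adjusted p = 0.0297) and r = 0.57 without E4-05 4 and E3-15 1. The thalamus list had r = 0.53 (rho = 0.56, permutation p = 0.0329, adjusted p = 0.0477) and r = 0.28 without these 2 libraries. The cortex and hippocampus list had r = -0.54 (rho = -0.52, permutation p = 0.0313, adjusted p = 0.0477) and r = -0.15 without these 2. In E4-05 4, the other column with most Mog, the thalamus list mean was 7.30 log2 CPM, the highest of all 24 libraries, and the cortex and hippocampus mean was 5.63, the lowest of the 16. The cerebellum and hindbrain (r = 0.40), choroid plexus (0.41) and striatum (0.00) lists did not pass. In the 8 hindbrain-rich columns 5 list means passed, those of cholesterol synthesis (r = 0.95, and 0.81 without E3-10 1 and E3-10 4), further oligodendrocyte genes (0.93 and 0.25), sphingolipid genes (0.92 and 0.46), endothelial genes (0.92 and -0.03) and neuron genes (0.68 and 0.06). The microglia list had r = 0.81 (-0.26 without those 2) and did not pass. The part of region and of other cells in the covariation was not tested.

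Over all 20436 other genes tested, those outside the list with the highest r with Mog in the 16 other columns included Lpar1 (0.97), Adamts4 (0.96), Tspan2 (0.96), Llgl1 (0.96), Pacs2 (0.95), Tnni1 (0.95) and Pdlim2 (0.95). In the 8 hindbrain-rich columns, 6 of these 7 had r from 0.86 to 0.94, and Llgl1 had r = -0.23. Of the other 32 listed genes, 5 were among the top 10 of a ranking that includes them, 16 among the top 50 and 17 among the top 100. The ranking is a description of these 16 libraries.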

How the data were processed

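Total RNA was extracted with TRIzol and libraries were made with a NEBNext Ultra kit and sequenced on an Illumina NovaSeq, per the labels. Reads were handled with HISAT2 2.1.0, featureCounts 2.0.6 and build mm39, per the submitters' processing notes. The annotation and strand setting are not given in the sources used here, so reads from overlapping and antisense genes cannot be told apart. Gene symbols carry raw, unscaled counts as deposited. Low counts were more often even than odd (62.6% to 70.8% of values from 1 to 19, by library), as where both reads of a pair count. Columns were joined to libraries by the number in each label.

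Models were fitted in edgeR 4.0.16 under R 4.3.3, with filterByExpr over the 6 groups (20437 of 40836 genes), TMM factors (0.916 to 1.10), a coefficient per group plus a term for columns headed by multiples of 3 (17 residual degrees of freedom), or E code by column class plus time code (18), quasi-likelihood F tests, and Benjamini-Hochberg adjustment over all genes, called under 0.05. The biological coefficient of variation was 22.5% with the class term and 40.8% without. CPM used the total count times the TMM factor, and log2 CPM a prior count of 2. Correlations used 100000 permutations in 16 columns and every permutation in 8 (exact), two-sided, in scipy 1.17.1 and numpy 2.4.6. On simulated counts with 200 genes changed, the class comparison recovered 89% of genes changed 2-fold and 99% of those changed 4-fold, with 6 false calls. The simulated comparison at time code 05 gave 7 false calls.

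The members, the 17 further lists, the column classes and the tests were chosen with earlier results of these data known. Named genes are all 33 members, up to 4 genes of each list with the smallest p in a comparison, and the 8 genes most like Mog; a few genes that this rule names are not reported here. Alternatives were RLE factors, no filter, DESeq2 1.42.0, no class term, only the other 16 columns, header remainder, titled month, a replicate block, a term for each set of 3 adjacent headers, Mbp in place of Mog, rank correlation and omission of single libraries. Later additions, made with the values in view, were Mog as a covariate, adjustment of correlations over all genes, leaving out 2 libraries rich in pituitary genes or 3 rich in haemoglobin, and a test among sets of adjacent headers. Gene positions on mm39 are not given, and each promoter window carries its own build.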

Additional observations from a re-analysis of the deposited data

Results flagged for a closer look

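In 8 of 198 sets of 4 libraries of a group, 1 for each of 33 genes in 6 groups, a single library stood far from the other 3 by Dixon's criterion, which chance meets in about 1 in 20 sets. Of these 8 values, 4 are in hindbrain-rich columns. Mal stood at 436.5 CPM in E4-10 4, above 305.8 CPM in the next library. Ermn and Bcas1 were both high in E4-10 2, a hindbrain-rich column, at 139.1 against 96.5 CPM and at 246.2 against 192.1 CPM. Pllp was high in E4-15 1 at 109.3 against 100.6 CPM, and Olig2 in E4-05 4 at 46.22 against 31.29 CPM. On the low side were Pdgfra in E4-05 3 at 42.26 against 70.22 CPM, Olig1 in E4-10 3 at 119.5 against 151.7 CPM, and Nkx2-2 in E3-05 1 at 4.902 against 7.344 CPM.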

How the results depend on the processing

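None of the 33 genes passed for an E code or time code comparison under any alternative run. For the column classes, 13 of the 33 genes passed, and 20 of 32 did with Mog as a covariate, which removes variation shared with Mog. Leaving out 1 library gave 10 to 15 genes, and the remaining alternatives gave 11 to 18, with 18 under a term for each set of 3 adjacent headers, 14 in DESeq2, 12 with titled month or without the 2 pituitary-rich libraries, and 11 without the 3 haemoglobin-rich ones. Correlations with Mog passed for 30 genes in the other 16 columns (27 to 31 without single libraries, 27 by rank). Adjusted over all genes tested, which was added after the values were seen, 25 passed. In the 8 hindbrain-rich columns they passed for 27, for 0 when adjusted over all genes, for 7 by rank, and for 10 to 28 without single libraries, with 10 without E3-10 1 and 13 without E3-10 4. The cause was not tested. No call was reversed.

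Counts over all genes were small and moved. DESeq2 called 40 genes for E4 minus E3 at time code 10 (2 in edgeR, 5 with no filter), 18 for time code 10 minus 05 (0 in edgeR), 36 for 15 minus 05 (11), 17 for 15 minus 10 (1) and 5 for E4 minus E3 in the hindbrain-rich columns (0). With the replicate block, 13 members passed between the column classes and 0 in every other comparison. All genes then gave 1 call at time code 10 and 1 for 15 minus 05. Residuals of libraries with the same number had a median correlation of -0.01 (60 pairs) and those with different numbers 0.01 (180 pairs). The pairs were taken between all groups, also across time codes. These medians therefore cannot show whether a shared number pairs libraries within a time code.

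With 4 libraries a group and standard errors near 0.3 for Mog, differences of that size on the log2 scale could not be told from the spread between libraries.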

Other observations

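With Mog as a covariate, some members differed between sets of adjacent columns. The 24 headers fall into 8 sets of 3 adjacent numbers, each with both E codes and 1 hindbrain-rich column, and this comparison was added after the values were seen. In edgeR 0 of the 33 genes passed among the sets, where 0.357% of all genes did (73 genes). Unadjusted p-values were under 0.05 for all of the 33 but Ninj2, Olig2, Nkx6-2, Pdgfra and Cspg4. The smallest was that of Cldn11 (edgeR unadjusted p = 0.00111, adjusted p = 0.147), and Mog had an unadjusted p of 0.00203. The number of all genes with such a p was not taken. With Mog as a covariate 8 of 32 passed, where 0.91% of all genes did (186 genes). These 8 were Ermn, Car2, Trf, Gjb1, Myrf, Hapln2, Bcas1 and Sox10, with adjusted p from 0.0145 to 0.0494.

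Relative to Mog, Hapln2 lay 0.53 and 0.54 below its mean on the log2 scale (-0.53 and -0.54) in headers 16 to 18 and 22 to 24, and 0.34 above it in headers 19 to 21. Ermn lay at -0.35, -0.43 and 0.32 in the same 3 sets, Trf at -0.31, -0.41 and 0.27, and Car2 at -0.42, -0.41 and 0.16. Mal (0.02, 0.00 and 0.06) and Enpp6 (0.06, 0.06 and 0.06) stayed near their means there. Such ratios are a description and were not tested, since the fit gave Mog a slope of its own. Nkx2-2 (0.47 in headers 1 to 3 and -0.64 in headers 22 to 24) and Nkx6-2 (0.56 and -0.51) lay as far out but did not pass. In single libraries, the ratio of Hapln2 to Mog in CPM was 0.739 in E4-10 4, 0.826 in E3-15 1, 0.674 in E4-15 3 and 0.848 in E3-15 4, the 4 columns of those sets that are not hindbrain-rich. It was 1.01 to 1.72 in the remaining 12 of that class. In E3-15 2 and E4-15 2, the 2 such columns of headers 19 to 21, it was 1.72 and 1.49. The labels do not say what adjacent headers share, and headers 17 to 24 all have time code 15, so low and high ratios occur within 1 time code.

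Opalin, Mal and Cldn11 on one hand and Hapln2, Gjb1 and Trf on the other differed in opposite directions between the column classes at a given level of Mog. The log2 differences were -0.53, -0.46 and -0.29 against 0.76, 0.66 and 0.61. In that fit 57.9% of all genes tested passed. The first 3 followed Mog closely in the 16 other columns (r = 0.93, 0.96 and 0.96), and the others less (r = 0.53 for Hapln2, 0.82 for Gjb1 and 0.81 for Trf). The choroid plexus list summed to a median of 1438 CPM in the hindbrain-rich columns and 636 CPM in the others. The part of choroid plexus and of other cells in the levels of these genes, Trf among them, was not tested.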
